A study of Mus musculus with 18 samples.

Results

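The genes described here are 10 targets of the transcription factor p53 in cultured mouse neurons. They are Cdkn1a, Phlda3, Ccng1, Aen, Mdm2, Fas, Zmat3, Ddb2, Rrm2b and Plk3, out of 16593 genes named on the array. They were chosen by name, with earlier results of these arrays known, so their values at 1 µM adaptaquin without homocysteic acid (HCA), and that of Plk3 with HCA alone, are given as a description and not as a test. The members held 26 probes, of which 21 passed a filter on dim signals. All 10 members kept at least 1 probe and were among the 8922 genes tested.

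The neurons were exposed to adaptaquin, an inhibitor of the oxygen-sensing prolyl hydroxylases, at 0, 0.1 or 1 µM, with or without HCA. HCA is a glutamate analogue that blocks cystine uptake, depletes glutathione and kills young cortical neurons by oxidative stress. The 6 groups were HCA alone, HCA with 0.1 µM adaptaquin, HCA with 1 µM adaptaquin, no treatment, 0.1 µM adaptaquin and 1 µM adaptaquin. Each group had 3 arrays, and the third HCA-only array, titled as an outlier, was left out, so that HCA alone had 2. The labels name no strain, culture age, brain region or time of exposure, and they do not say that replicates came from separate cultures, so the p-values take in only how these samples varied among themselves, possibly for technical reasons.

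p53 is a transcription factor that cells hold at a low level, because the ubiquitin ligase MDM2 marks it for destruction. DNA damage, oxidative stress and other insults release it, and it then binds paired half-sites near its target genes. Its targets stop the cell cycle, repair DNA, restrain growth signals or kill the cell, and among the first to respond is Mdm2 itself, which closes a feedback loop. In neurons, which have left the cell cycle, p53 is known mainly for its part in death after DNA damage, excitotoxic injury and ischaemia.

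Promoter sequences show where the known p53 motif lies close to the gene start and where it does not. RefSeq promoter windows of mouse build GRCm38.p6, from 250 bases before to 50 bases after each gene start, were at hand for 7 of the 10 members in 9 windows. Zmat3, Ddb2 and Rrm2b had no entry. The p53 half-site, a motif of 10 letters that reads the same on both strands, was sought alone and as 2 half-sites separated by 0 to 13 bases. The sequences below run 5′ to 3′ on the strand of the gene, and the half-sites are in capitals.
Cdkn1a: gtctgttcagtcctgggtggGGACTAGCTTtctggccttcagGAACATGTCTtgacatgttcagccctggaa
Ccng1: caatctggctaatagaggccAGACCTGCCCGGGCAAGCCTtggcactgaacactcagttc
Aen: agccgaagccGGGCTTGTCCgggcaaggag
Mdm2: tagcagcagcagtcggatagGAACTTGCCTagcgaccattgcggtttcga
The Cdkn1a stretch (chr17:29090886-29090957, plus strand) belongs to 1 of 2 annotated starts and holds 2 half-sites without a mismatch, 12 bases apart, the first beginning 73 bases before the start. Directly after the second of them, 10 more bases match the half-site with 1 mismatch. The Ccng1 stretch (chr11:40755442-40755501, minus strand) holds 2 adjoining half-sites with 1 mismatch in all, beginning 195 bases before the start. Single half-sites lie in Aen (chr7:78895927-78895956, plus strand) at the first of its 2 annotated starts, and in Mdm2 (chr10:117710915-117710964, minus strand) 186 bases before the start. The windows of Phlda3, Fas and Plk3 and the second Cdkn1a window hold no match. Among all 32851 promoter windows, 8.36% hold at least 1 half-site, 0.627% hold 2 half-sites with at most 1 mismatch and 0.0731% hold 2 without a mismatch.

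Values below are normalised log2 probe intensities. A difference of 1 on this scale is a doubling of the corrected intensity, and the levels of different probes are not set against each other. Among the 17 arrays analysed, raw intensity had an upper quartile of 333 to 563 and 42.8% to 47.6% of probes were detected. The titled outlier had 241 and 40.9%. The number of arrays limited the precision. Of 11 neuronal markers, 8 passed the filter, and their mean log2 intensity lay between 10.55 and 10.88 on all 17 arrays, while the probes of Snap25, Nefl and Gad2 were not detected on any array. Markers of other cells were present too, with 7 of 8 for astrocytes, 7 of 11 for microglia and 4 of 9 for oligodendrocytes past the filter. The microglial markers Itgam and Ptprc, and the oligodendrocyte markers Mog, Mag and Olig2, were not detected on any array. In such mixed RNA, fewer cells of a type and less RNA per cell cannot be told apart.

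Cdkn1a encodes p21, an inhibitor of cyclin-dependent kinases and the classic p53 target for cell cycle arrest. With HCA it read 9.79 and 9.71 at 0 µM adaptaquin, 9.95, 9.88 and 9.51 at 0.1 µM, and 10.41, 10.48 and 9.99 at 1 µM. Without HCA it read 9.30, 9.10 and 8.72 at 0 µM, 9.18, 9.07 and 8.86 at 0.1 µM, and 10.75, 10.75 and 10.17 at 1 µM. Every array with 1 µM adaptaquin lay above every other array. The arrays with HCA at 0 or 0.1 µM lay above all arrays without HCA at those doses, so that the 6 groups form 3 tiers.

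Phlda3 encodes a small membrane-binding protein that competes with Akt for phosphoinositides and so restrains Akt signalling. With HCA it read 7.70 and 7.91 at 0 µM, 8.06, 7.88 and 7.51 at 0.1 µM, and 8.67, 8.74 and 8.27 at 1 µM. Without HCA it read 7.46, 7.56 and 7.35 at 0 µM, 7.62, 7.55 and 7.47 at 0.1 µM, and 9.09, 9.26 and 8.54 at 1 µM. The arrays with 1 µM again stood clear of all others, with HCA or without. Ccng1 encodes cyclin G1, which recruits a phosphatase to MDM2. With HCA it read 10.67 and 10.25 at 0 µM, 10.41, 10.37 and 9.96 at 0.1 µM, and 10.92, 10.96 and 10.65 at 1 µM. Without HCA it read 10.09, 10.22 and 10.10 at 0 µM, 9.95, 10.16 and 10.01 at 0.1 µM, and 11.11, 11.55 and 10.94 at 1 µM. Its HCA arrays were uneven, and HCA replicate 1 reached the lowest array of HCA with 1 µM.

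Aen encodes a p53-induced exonuclease that takes part in apoptosis. Its probe read 6.51 and 6.52 with HCA at 0 µM, 6.45, 6.42 and 6.62 at 0.1 µM, and 6.86, 6.48 and 6.67 at 1 µM. Without HCA the values were 5.99, 6.23 and 5.73 at 0 µM, 6.30, 6.55 and 5.90 at 0.1 µM, and 6.92, 7.19 and 6.76 at 1 µM. The 3 doses overlapped under HCA, while without HCA the 1 µM arrays stood above the rest. Fas encodes a death receptor on the cell surface and was dim. It read 5.90 and 6.22 with HCA at 0 µM, 6.10, 5.87 and 5.33 at 0.1 µM, and 6.62, 6.70 and 6.12 at 1 µM. Without HCA the values were 5.48, 5.79 and 4.74 at 0 µM, 5.37, 5.91 and 5.19 at 0.1 µM, and 6.44, 7.11 and 6.09 at 1 µM. Its probe was above background on all 3 arrays of either 1 µM group, on 2 of 3 arrays of HCA with 0.1 µM, on 2 of 2 with HCA alone, on 1 of 3 with 0.1 µM and on 1 of 3 untreated arrays. Zmat3 encodes an RNA-binding zinc finger protein and tumour suppressor. It read 9.01 and 9.22 with HCA at 0 µM, 9.51, 9.22 and 8.91 at 0.1 µM, and 9.51, 9.32 and 9.32 at 1 µM. Without HCA it read 8.82, 8.84 and 8.72 at 0 µM, 8.72, 8.94 and 8.57 at 0.1 µM, and 9.34, 9.32 and 9.17 at 1 µM. Both the HCA arrays and the 1 µM arrays lay above the untreated ones.

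The other 4 members had no such step at 1 µM. Mdm2 lay between 11.11 and 11.49 on all 8 arrays with HCA and between 11.12 and 11.52 on all 9 without, and its means ran from 11.16 (HCA) to 11.42 (1 µM adaptaquin). Ddb2, which encodes a subunit of the complex that recognises ultraviolet damage, spanned 6.88 to 7.53 with HCA and 7.10 to 7.61 without. Rrm2b, the p53-inducible subunit of ribonucleotide reductase, lay between 7.99 and 8.48 on all 17 arrays. For these 3 genes the 3 doses overlapped without HCA. Plk3, a stress-responsive polo-like kinase, followed HCA and not the dose. With HCA it read 9.45 and 9.23 at 0 µM, 9.30, 9.48 and 9.58 at 0.1 µM, and 9.34, 9.19 and 9.48 at 1 µM. Without HCA it read 8.93, 8.71 and 8.64 at 0 µM, 8.98, 8.86 and 8.91 at 0.1 µM, and 9.01, 8.84 and 9.01 at 1 µM. All 8 arrays with HCA lay above all 9 without.

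**Figure D1:**
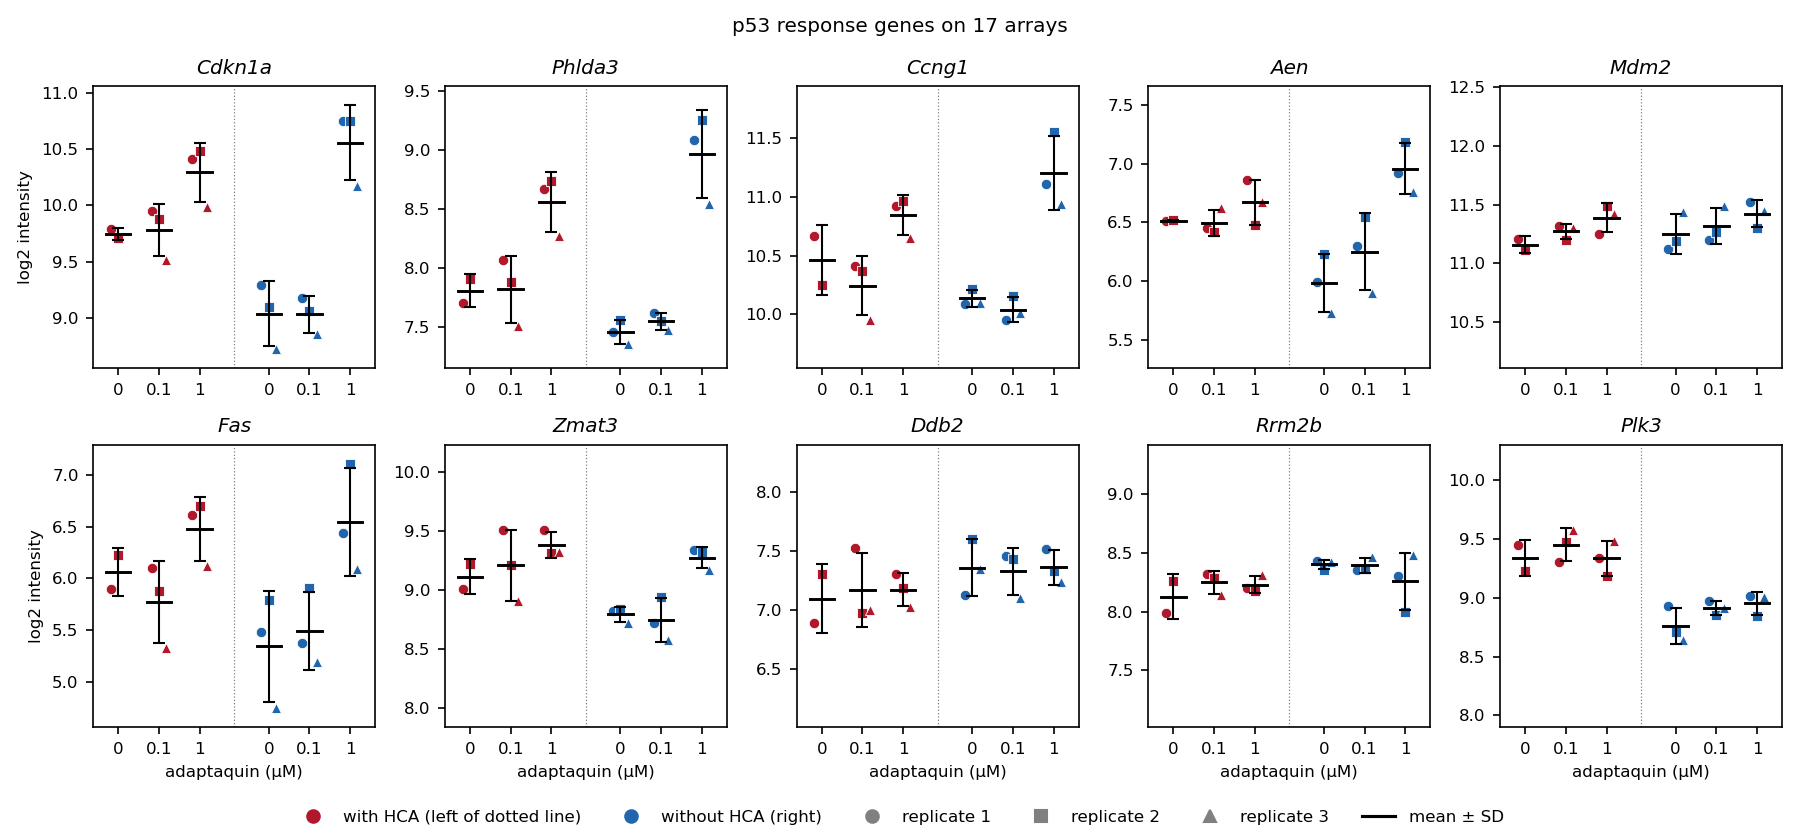
Normalised log2 intensity of each member (vertical axis) against adaptaquin dose in µM, with HCA left of the dotted line and without HCA right of it. Points are arrays, with their shape giving the replicate number, and bars are means ± SD. Cdkn1a, Phlda3 and Ccng1 step up at 1 µM in both arms, while Plk3 is split by HCA and Mdm2, Ddb2 and Rrm2b show neither pattern.

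Ordered by group mean, Cdkn1a ran 10.56 ± 0.34 at 1 µM, 10.29 ± 0.26 with HCA and 1 µM, 9.78 ± 0.23 with HCA and 0.1 µM, 9.75 ± 0.052 with HCA, 9.04 ± 0.29 in untreated neurons and 9.03 ± 0.16 at 0.1 µM (SD, n = 3, and n = 2 for HCA). The means next to each other at the top, in the middle and at the bottom of this order lay within their spread. Phlda3, Ccng1, Aen, Fas and Mdm2 had the same 2 groups in front, 1 µM adaptaquin before HCA with 1 µM, and Zmat3 had these 2 in the opposite order. Plk3 was highest with HCA and 0.1 µM (9.45 ± 0.14), and Rrm2b was highest in untreated neurons (8.40 ± 0.040).

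In the comparison that chose the members, 1 µM adaptaquin against untreated neurons, 6 members were higher with no overlap of the groups. Their log2 differences were 1.52 ± 0.19 for Cdkn1a, 1.51 ± 0.18 for Phlda3, 1.06 ± 0.17 for Ccng1, 0.97 ± 0.17 for Aen, 1.21 ± 0.31 for Fas and 0.48 ± 0.14 for Zmat3 (SE, n = 3 each). Plk3 (0.19 ± 0.11), Mdm2 (0.18 ± 0.11), Ddb2 (0.0026 ± 0.17) and Rrm2b (-0.14 ± 0.11) overlapped. Of all genes, 3.43% were higher without overlap, and nothing is read from the members' count here. At an adjusted p of 0.05 by limma, Cdkn1a, Phlda3, Ccng1 and Aen lay inside the threshold, with Aen the nearest to it inside (adjusted p = 0.0355) and Fas the nearest outside (adjusted p = 0.471), against 0.146% of all genes. A fit that compared arrays within their replicate number added Fas (adjusted p = 0.00148, blocked) and left Zmat3 outside (adjusted p = 0.186, blocked), against 0.202% of all genes. Over 18 alternative settings, 15 called Cdkn1a, 15 Phlda3, 8 Ccng1 and 6 Aen. The difference of Fas ran from 0.414 to 1.44 over these settings and that of Aen from 0.395 to 1.09. No marker list was free of overlap in this comparison. The mean of the microglial markers differed by -0.199 and that of the neuronal markers by -0.0571.

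The dose of 0.1 µM gave no such step. Against untreated neurons, the 10 members differed by -0.095 to 0.27 at 0.1 µM, and no member's groups were free of overlap. Between 1 µM and 0.1 µM without HCA, the same 6 members were free of overlap, as were 2.99% of all genes, and the log2 differences were 1.53 ± 0.19 for Cdkn1a, 1.42 ± 0.18 for Phlda3 and 1.16 ± 0.17 for Ccng1. This comparison shares its 1 µM arrays with the one that chose the members, so it is no separate evidence.

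The arrays with HCA and adaptaquin are not in the comparison that chose the members. Earlier results of these data were known at the choice, however, so tests on these arrays are not fully separate from it. The comparison of HCA with 1 µM against HCA with 0.1 µM asked whether the dose step is also seen in neurons under oxidative stress. Phlda3 was higher by 0.74 ± 0.18, Fas by 0.71 ± 0.31, Ccng1 by 0.60 ± 0.17 and Cdkn1a by 0.51 ± 0.19 (SE, n = 3 each), folds of 1.67, 1.64, 1.52 and 1.42. In these 4 members, every array with HCA and 1 µM lay above every array with HCA and 0.1 µM, and so did 2.44% of all genes. None passed the test over all genes, with limma's adjusted p at 1 for each member, and 0% of genes were called. The unadjusted p was 0.00107 for Phlda3, 0.00283 for Ccng1, 0.0181 for Cdkn1a and 0.037 for Fas, and 234 of 8922 genes had one under 0.05. Within replicate numbers 1, 2 and 3, Cdkn1a differed by 0.457, 0.599 and 0.475, Phlda3 by 0.609, 0.864 and 0.757, and Fas by 0.519, 0.825 and 0.795. Fas was dim, and the nearest arrays of its groups read 6.12 and 6.10. Over 18 alternative settings its difference ran from 0.25 to 0.892. The blocked fit gave Cdkn1a and Phlda3 an adjusted p of 0.0995, still outside the threshold, and called 0 genes.

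Aen (0.18 ± 0.17) and Zmat3 (0.17 ± 0.14), which stood apart at 1 µM without HCA, overlapped here, although each was higher in 3 of 3 replicate numbers. Mdm2 (0.11 ± 0.11), Ddb2 (0.0049 ± 0.17), Rrm2b (-0.018 ± 0.11) and Plk3 (-0.11 ± 0.11) also overlapped. By the brightest probe of each gene, the 6 members that stood apart at 1 µM without HCA had a median difference of 0.555 here. The other 4 had a median of -0.0068, and all genes a median of -0.00061. No marker list was free of overlap between these groups. The mean of the microglial markers differed by -0.189 and that of the neuronal markers by -0.0911, and their part in the result was not tested.

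**Figure D2:**
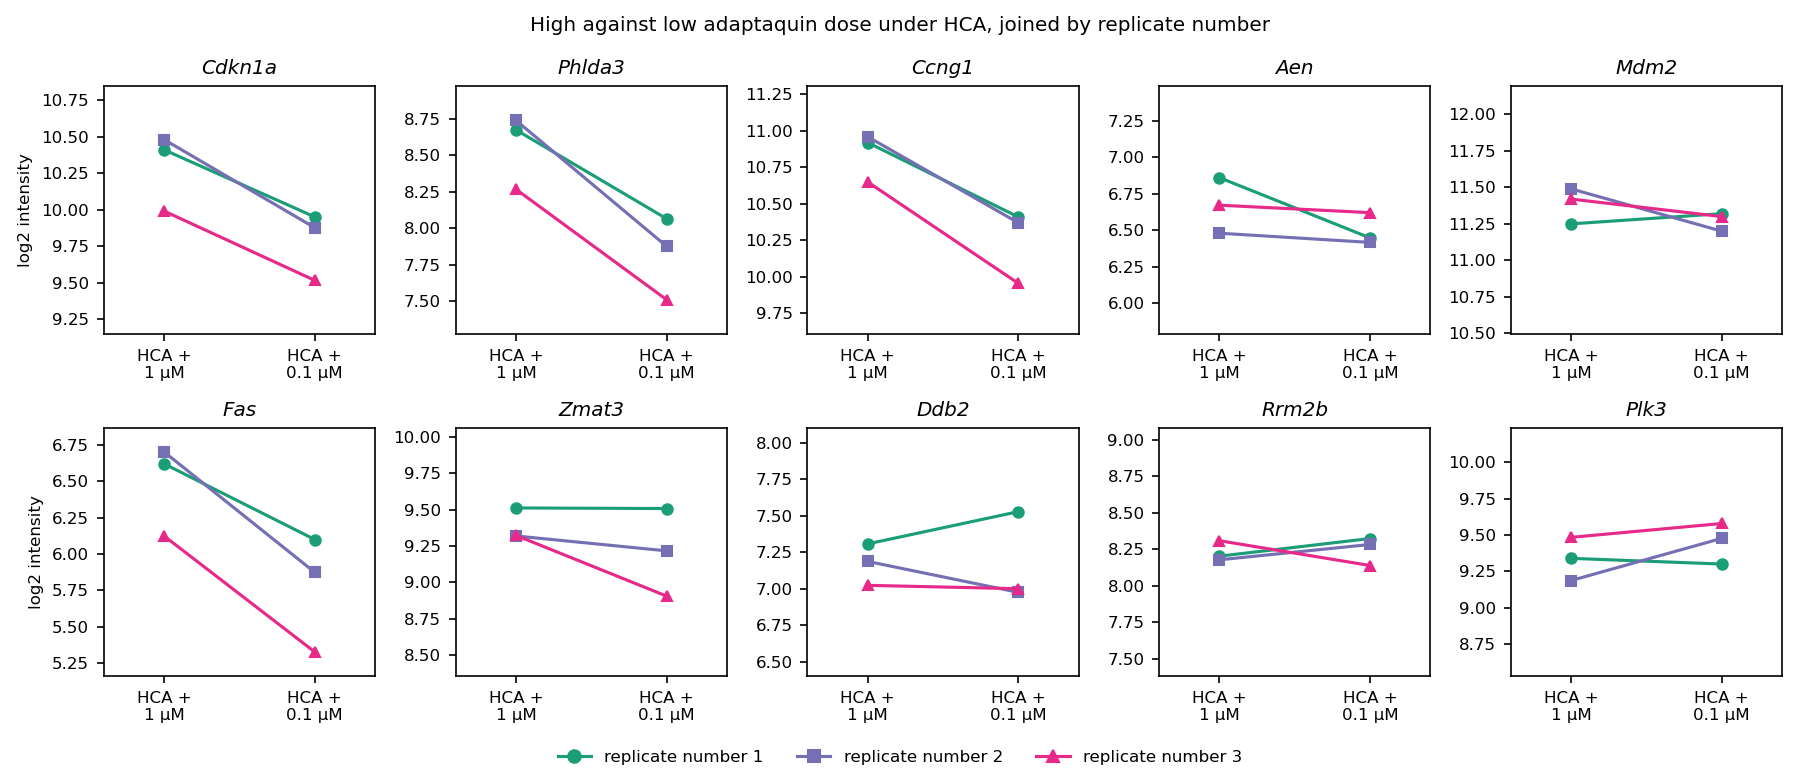
Normalised log2 intensity of each member with HCA and 1 µM adaptaquin (left) and with HCA and 0.1 µM (right). Lines join arrays that share a replicate number. All 3 lines fall from left to right for Cdkn1a, Phlda3, Ccng1 and Fas by 0.457 to 0.864, while those of Mdm2, Ddb2, Rrm2b and Plk3 run in mixed directions.

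Against HCA alone, HCA with 1 µM adaptaquin gave the same leading members. Phlda3 was higher by 0.75 ± 0.20, Cdkn1a by 0.54 ± 0.21, Fas by 0.42 ± 0.35 and Ccng1 by 0.39 ± 0.19 (SE, n = 3 and 2). The values of Ccng1 and Fas turned on single HCA-only arrays, with Ccng1 at 0.175 without HCA replicate 2 and 0.596 without replicate 1, and Fas at 0.256 without HCA replicate 1. Without background correction Fas was at 0.161. None passed the test, with an adjusted p of 0.998 for each of these by limma, and 0% of all genes were called, although 244 had an unadjusted p under 0.05. The fit with replicate number as a block gave Cdkn1a a difference of 0.69 ± 0.089 and an adjusted p of 0.0378. Cdkn1a thus rose in that fit and was the 1 gene called of 8922, or 0.0112%. Phlda3 stayed outside, at 0.88 ± 0.13 (adjusted p = 0.0701, blocked). When all probes were fitted, the same Cdkn1a probe was outside the threshold too (adjusted p = 0.0712, blocked). The other Cdkn1a probes were higher by 0.533 and 0.185 without the block (adjusted p = 0.73 and 0.999, blocked), so the call rests on the brightest probe. The groups of Cdkn1a, Phlda3, Zmat3 and Mdm2 did not overlap, against 9.06% of all genes. In the 2 replicate numbers that could be set side by side, Cdkn1a was higher by 0.621 and 0.762, Phlda3 by 0.969 and 0.834, and Mdm2 by 0.0395 and 0.387. This comparison shares the arrays of HCA with 1 µM with the previous one. At 0.1 µM, HCA with adaptaquin differed from HCA alone by -0.29 to 0.12 in the 10 members, and none had an unadjusted p under 0.05.

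HCA itself was tested at 0.1 µM adaptaquin, on arrays outside the comparisons that chose the members, though with earlier results of these data known. Plk3 rose by 0.54 ± 0.11 (adjusted p = 0.0239 by limma, n = 3 each), a fold of 1.45, and was higher in 3 of 3 replicate numbers. Cdkn1a was higher by 0.75 ± 0.19 and Zmat3 by 0.47 ± 0.14, and neither passed (adjusted p = 0.0678 and 0.122), but both rose in the blocked fit (adjusted p = 1.4e-04 and 0.0256). So 1 of 10 members was called up in the main fit, against 1.28% of all genes, and 3 of 10 in the blocked fit, against 3.36%. Cdkn1a and Plk3 were higher without overlap of the groups, against 7.97% of all genes. Rrm2b was lower without overlap, at 8.32, 8.28 and 8.14 with HCA and 0.1 µM against 8.35, 8.36 and 8.46 with 0.1 µM, as were 7.99% of all genes. Phlda3 (0.27 ± 0.18), Ccng1 (0.20 ± 0.17), Aen (0.25 ± 0.17) and Fas (0.28 ± 0.31) did not pass in either fit, nor did Mdm2 (-0.044 ± 0.11), Ddb2 (-0.16 ± 0.17) or Rrm2b (-0.14 ± 0.11).

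The call of Plk3 was narrow in the fit without the block. It was lost without any 1 array of the 0.1 µM group, without replicate 2 or 3 of HCA with 0.1 µM, and with median scaling. In these settings its difference stayed between 0.47 and 0.57 and its adjusted p between 0.0536 and 0.226. It was also lost without all arrays numbered 1, 2 or 3, at differences of 0.645, 0.497 and 0.473. The blocked fit called Plk3 (adjusted p = 0.00695, blocked), and arrays were not left out of that fit. Markers moved with HCA as well. The astrocyte markers, 7 of 8 measured, differed by -0.404 in the mean and the oligodendrocyte markers, 4 of 9 measured, by -0.267, both without overlap of the groups and with 0 genes called. Summed intensities of the astrocyte markers ran from 8060 to 9517 with HCA and 0.1 µM and from 9872 to 13857 with 0.1 µM. Those of the oligodendrocyte markers ran from 1479 to 1957 with HCA and 0.1 µM and from 1972 to 2638 with 0.1 µM. The part of these markers in the members' values was not tested.

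**Figure D3:**
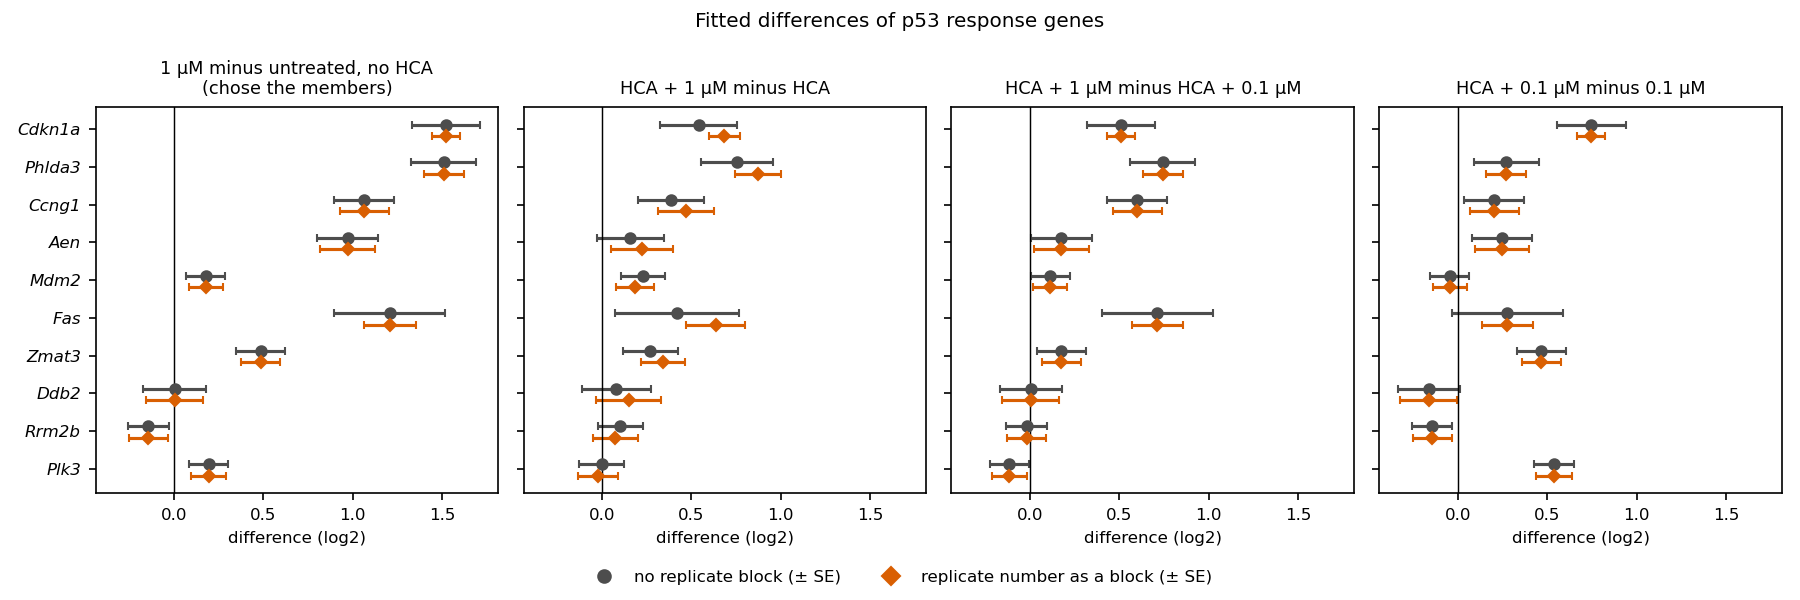
Fitted log2 differences ± SE of the 10 members in 4 comparisons, named above each panel as the first group minus the second. Circles are the fit without and diamonds the fit with replicate number as a block. The leftmost panel chose the members. Phlda3, Cdkn1a, Fas and Ccng1 lead the high dose panels under HCA, and Cdkn1a, Plk3 and Zmat3 lead the HCA panel, with Plk3 near 0 in the panels of dose under HCA.

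HCA alone against untreated neurons shares its untreated arrays with the choice of members and is given as values. Fas was higher by 0.72 ± 0.35, Cdkn1a by 0.71 ± 0.21, Plk3 by 0.58 ± 0.12, Aen by 0.53 ± 0.19, Phlda3 by 0.35 ± 0.20, Ccng1 by 0.32 ± 0.19 and Zmat3 by 0.32 ± 0.15 (SE, n = 2 and 3). These 7 had no overlap between the groups, as had 15% of all genes, and limma called Plk3, against 0.605% of all genes. The blocked fit put Cdkn1a inside the threshold as well (adjusted p = 0.00446, blocked), against 1.58% of all genes. The call of Plk3 is how Plk3 came to be listed, so it is no separate evidence. Ddb2 (-0.27 ± 0.19), Rrm2b (-0.28 ± 0.13) and Mdm2 (-0.090 ± 0.12) were not higher, and Rrm2b was lower without overlap, at 7.99 and 8.26 with HCA against 8.36 to 8.43 in untreated neurons, as were 16.8% of all genes. Fas was at 0.421 without untreated replicate 3, and Ccng1 at 0.111 without HCA replicate 1 and 0.532 without HCA replicate 2.

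With 1 µM adaptaquin in both groups, 2 of 10 members, Zmat3 and Plk3, had higher mean values with HCA, as had 4331 of 8922 genes. HCA with 1 µM against 1 µM alone differed by -0.40 ± 0.18 for Phlda3, -0.36 ± 0.17 for Ccng1, -0.28 ± 0.17 for Aen and -0.27 ± 0.19 for Cdkn1a (SE, n = 3 each). All 4 were lower with HCA in 3 of 3 replicate numbers, with groups that overlapped. The same held for Ddb2 (-0.19 ± 0.17), whose other probes gave 0.0737 and 0.398. Mdm2 (-0.037 ± 0.11) and Rrm2b (-0.029 ± 0.11) overlapped as well and were higher with HCA in 1 of 3 replicate numbers. The other Ccng1 probes gave 0.354 and 0.0191, so its sign depended on the probe. Leaving out replicate 2 of the 1 µM group moved Phlda3 to -0.258 and Ccng1 to -0.181, leaving out replicate 3 of that group moved Phlda3 to -0.616, and leaving out replicate 3 of HCA with 1 µM moved Phlda3 to -0.258. Fas (-0.067 ± 0.31) and Zmat3 (0.11 ± 0.14) were higher with HCA in 2 of 3 replicate numbers, and Plk3 was higher by 0.38 ± 0.11 in 3 of 3. The change at 1 µM with HCA minus the change without it was -0.98 ± 0.29 for Cdkn1a, -0.81 ± 0.25 for Aen, -0.79 ± 0.47 for Fas, -0.75 ± 0.27 for Phlda3, -0.68 ± 0.25 for Ccng1 and -0.21 ± 0.21 for Zmat3, against a median of 0.0074 over all genes. For the other members it was 0.053 ± 0.16 (Mdm2), 0.077 ± 0.26 (Ddb2), 0.246 ± 0.17 (Rrm2b) and -0.195 ± 0.17 (Plk3). The dimmer probes gave -0.276 and -0.726 for Ccng1 and -0.221 and -0.705 for Aen. This difference takes in the arrays that chose the members. Members with a rise on those arrays are favoured to have negative values, so no test is given.

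Several members had more than 1 probe, which read the same RNA at different places. The 3 probes of Cdkn1a, detected on all 17 arrays, differed by 1.21 to 1.52 at 1 µM against untreated neurons, by 0.51, 0.40 and 0.40 at 1 µM against 0.1 µM under HCA, and by 0.75, 0.79 and 0.83 for HCA at 0.1 µM. The 3 probes of Ccng1 differed by 1.06, 1.17 and 0.90 at 1 µM and by 0.60, 0.64 and 0.53 for the dose step under HCA. For HCA at 0.1 µM the dimmer Ccng1 probes gave 0.55 and 0.65 where the brightest gave 0.20, so its HCA value depended on the probe. The second Phlda3 probe was detected on 3 of 3 arrays with 1 µM, 2 of 3 with HCA and 1 µM, 1 of 2 with HCA, and on 0 arrays of HCA with 0.1 µM, of 0.1 µM and of untreated neurons. It thus passed the filter only through arrays with 1 µM, so its rise there is no separate evidence. It gave 1.24 at 1 µM against untreated neurons and 1.1 for the dose step under HCA, where the brighter probe gave 1.51 and 0.743. For HCA at 0.1 µM it gave -0.0105, from groups without an array above background, where the brighter probe gave 0.271.

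The probes of Aen, apart from the brightest, were detected on 9 of 17 arrays each. They differed by 0.37 and 0.69 at 1 µM and by -0.34 and -0.35 for HCA at 0.1 µM. For the dose step under HCA they gave 0.0745 and 0.479, where the brightest gave 0.175. The brightest Aen probe gave 0.25 for HCA at 0.1 µM, so the probes of Aen disagreed in sign there. Both Mdm2 probes past the filter gave small values, 0.18 and 0.13 at 1 µM and 0.11 and 0.11 for the dose step under HCA. The 3 Ddb2 probes gave 0.0026, -0.21 and -0.23 at 1 µM, the last of these not above background on any array with 1 µM. For the dose step under HCA they gave 0.0049, 0.231 and 0.411, so the value of Ddb2 there depended on the probe. One further probe each of Mdm2, Fas and Ddb2 and 2 of Rrm2b were not detected on any array. The second Fas probe was detected on 1 array with HCA and 1 µM and on 1 with 1 µM, and gave 0.70 at 1 µM, 0.24 for the dose step under HCA, where the brighter probe gave 0.71, and 0.29 for HCA at 0.1 µM. Zmat3, Rrm2b and Plk3 rest on 1 probe each.

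**Figure D4:**
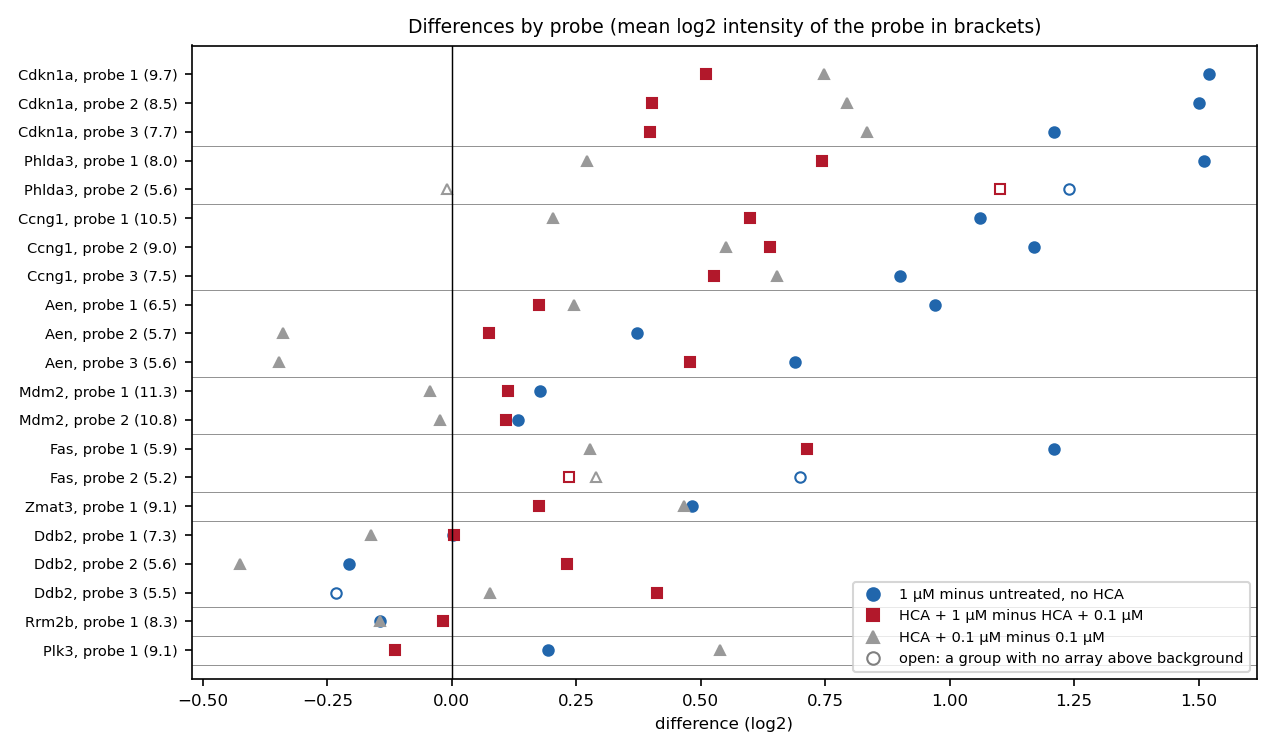
Log2 differences of the 21 member probes past the filter in 3 comparisons, each the first group minus the second, with the probes of a gene ordered from bright to dim. Open symbols mark a comparison in which 1 of the groups had no array above background. The probes of Cdkn1a and of Ccng1 lie together at 1 µM without HCA, from 0.90 to 1.52, and those of Aen are spread from 0.37 to 0.97.

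Genes that control p53 showed no called change. Of 17 listed, 9 were tested, among them the damage kinase Atm and the phosphatase Ppm1d. By limma with or without the block, 0 were called for HCA with 1 µM, the dose step under HCA or HCA at 0.1 µM. Of all 8922 genes, 0 were called without the block in the comparisons of HCA with 1 µM and of the dose step. The blocked fit called 1 gene for HCA with 1 µM. For HCA at 0.1 µM, 1.28% of all genes were called up and 0.628% down (3.36% and 2.61%, blocked). Nothing is read from the count of 0 in this list. Their median difference was 0.010 at 1 µM without HCA, 0.047 for the dose step under HCA and -0.021 for HCA at 0.1 µM, against -0.0019, -0.00061 and -0.0057 over all genes. Mdm4, the partner of MDM2, was not detected on any array. No probe was annotated to Trp53 alone, the gene that encodes p53, so Trp53 could not be analysed here.

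Of 18 further targets for arrest, repair and metabolism, 12 were tested, and 3 rose with HCA at 0.1 µM by limma, against 1.28% of all genes (4 in the blocked fit, against 3.36%). Sesn2, a stress-induced brake on mTORC1, rose by 1.74 ± 0.15 (adjusted p = 1.27e-05), Ddit4, another such brake, by 0.70 ± 0.16 (adjusted p = 0.0397) and Gadd45a, a stress sensor in growth arrest, by 0.62 ± 0.12 (adjusted p = 0.0117). The fourth was Polk, a translesion DNA polymerase (0.43 ± 0.18, adjusted p = 0.0412, blocked). Sesn2 and Ddit4 are also induced by other stress pathways. With each of the 6 arrays left out in turn, Sesn2 stayed called in 6 of 6 fits. Ddit4 stayed called only when the third 0.1 µM array was left out (in the rest, adjusted p reached up to 0.152), and Gadd45a only without replicate 2 of the 0.1 µM group or replicate 1 of HCA with 0.1 µM (adjusted p up to 0.066). None of the 12 was called for the dose step under HCA, where Sesn2 gave -0.17 ± 0.15 and Gadd45a -0.27 ± 0.12. At 1 µM against untreated neurons, Sesn2 (0.82 ± 0.15), Gtse1, a regulator of p53 in the G2 phase (0.74 ± 0.17), Polk (0.61 ± 0.18) and Trp53inp1, a p53-induced nuclear protein (0.32 ± 0.13), were higher without overlap, against 3.43% of all genes. For the dose step under HCA these gave 0.33 ± 0.17 for Gtse1, 0.24 ± 0.18 for Polk and 0.26 ± 0.13 for Trp53inp1, all with overlap. The list's median was 0.046 at 1 µM, -0.037 for the dose step and 0.146 for HCA at 0.1 µM.

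Of 13 listed cell death targets, 9 were tested. With HCA at 0.1 µM, Siva1, a death-domain adaptor, fell by 0.38 ± 0.091 (adjusted p = 0.0498), and 0 rose, against 0.628% of all genes called down. The call of Siva1 was lost with any 1 of the 6 arrays left out (adjusted p = 0.104 to 0.159). In the blocked fit Siva1 fell (adjusted p = 0.00986), against 2.61% of all genes called down. Bbc3, which encodes the BH3 protein PUMA, rose in that fit (0.36, adjusted p = 0.0461), against 3.36% called up. Pidd1, a scaffold for caspase activation, had no overlap at 1 µM against untreated neurons (0.81 ± 0.21) or in the dose step under HCA (0.75 ± 0.21, adjusted p = 1 by limma). Siva1 (0.16 ± 0.091) was also free of overlap in the dose step under HCA. Bbc3 (0.42 ± 0.13) and Apaf1, the core of the apoptosome (0.27 ± 0.090), had no overlap at 1 µM without HCA. Under HCA their dose steps were 0.096 ± 0.13 and 0.15 ± 0.090 with overlap. In all, 3 of 9 were higher without overlap at 1 µM, against 3.43% of all genes, and 2 of 9 in the dose step, against 2.44%. The list's median was 0.269 at 1 µM, 0.159 for the dose step under HCA and -0.185 for HCA at 0.1 µM.

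Cell cycle genes that p53 and p21 lower in dividing cells were measured as well, 24 of 30 listed. At 1 µM without HCA, 0 were called by limma, 4 of 24 values were above 0 and the median was -0.112. For the dose step under HCA the median was -0.0018 with 12 of 24 above 0. With HCA at 0.1 µM, 3 of 24 were above 0, the median was -0.25 and Mybl2, a transcription factor of cycling cells, fell by 0.80 ± 0.19 (adjusted p = 0.0471). That 1 gene stands against 0.628% of all genes called down, and 5 called down in the blocked fit against 2.61%. The call of Mybl2 held without replicate 1 of the 0.1 µM group and was lost without any of the other arrays (adjusted p up to 0.177). The astrocyte and oligodendrocyte markers moved the same way in that comparison, by the values given above.

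Over the 17 arrays, Cdkn1a varied most closely with Phlda3 (Pearson r = 0.943), Ccng1 (0.903), Fas (0.891), Zmat3 (0.867) and Aen (0.849) among the members. Plk3 (0.377), Mdm2 (0.248), Ddb2 (-0.0155) and Rrm2b (-0.531) stood away from it. Among all other genes tested, those most like Cdkn1a were the thiamine transporter gene Slc19a2 (r = 0.975), the transferrin receptor gene Tfrc (0.958), the epoxide hydrolase gene Ephx1 (0.945), Pqlc3 (0.928) and the xylulose reductase gene Dcxr (0.921). Most like Phlda3 were Pqlc3 (0.957), Slc19a2 (0.955), the kinase gene Mapkapk3 (0.934), Ddit4l (0.933) and Dcxr (0.927). These correlations describe 17 arrays that share 6 groups and their replicate numbers. The 17 include the 1 µM and untreated arrays that chose the members, so the correlations among members are no separate evidence.

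These genes were picked over the same arrays that give their dose step under HCA, so their values in it are a description, and no gene was called in that comparison. The differences were 0.33 ± 0.15 for Slc19a2, 0.58 ± 0.13 for Tfrc, 0.49 ± 0.22 for Ephx1, 0.71 ± 0.25 for Pqlc3, 0.64 ± 0.16 for Dcxr, 0.71 ± 0.15 for Mapkapk3 and 0.69 ± 0.19 for Ddit4l (SE, n = 3 each). With HCA at 0.1 µM the differences were 0.57 ± 0.13 for Tfrc, 0.53 ± 0.25 for Pqlc3, 0.51 ± 0.16 for Dcxr, 0.48 ± 0.22 for Ephx1, 0.39 ± 0.15 for Slc19a2, -0.015 ± 0.15 for Mapkapk3 and -0.027 ± 0.19 for Ddit4l.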

How the data were processed

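RNA of 18 samples was measured on Illumina bead arrays. Per the labels, Trizol extracts of total RNA were column-purified, treated with DNase I and labelled with biotin. The authors deposited probe intensity values, not normalized between arrays, and a detection p-value per probe and array. A second deposited table holds log2 values of 17 arrays, which equalled quantile-normalized log2 intensities to within 5e-09. The scanner software is not given in the sources used here.

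The neqc function of limma 3.58.1 (R 4.3.3) subtracted a background estimated from the detection p-values, added an offset of 16, and quantile-normalized all 18 arrays on the log2 scale. A probe was kept if its detection p-value was below 0.01 on 2 or more of the 17 arrays analysed, and the brightest probe stood for each gene (8922 genes). Symbols came from GEO's platform annotation. One coefficient per group was fitted by limma with empirical Bayes moderation (11 residual and 3.22 prior degrees of freedom), two-sided, with Benjamini-Hochberg adjustment over all genes in each contrast and a threshold of 0.05. The fit was tested on simulated data with noise drawn separately for each array, so not on arrays paired by replicate number. Differences are the first group named minus the second, with standard errors.

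Residuals of arrays with the same replicate number correlated at 0.238 to 0.626 (40 pairs), and those of different numbers and groups at -0.461 to 0.0614 (80 pairs). The numbers therefore pair the arrays, and the blocked fit is given in the tested comparisons where it changes a call. The members, the gene lists and the contrasts were chosen with earlier results of these data known. Named genes are all members, listed pathway genes called in a tested contrast or without overlap at 1 µM (at most 6 per list), Trp53 and Mdm4, and the 5 genes most correlated with Cdkn1a and with Phlda3. No coordinates are given for probes, because the array files name no genome build. Alternatives were the block, no background correction, median scaling, the authors' table, other filters, the outlier array included, the mean of a gene's probes, all probes fitted, and arrays left out.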

Additional observations from a re-analysis of the deposited data

Results flagged for a closer look

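The third HCA-only array, titled as an outlier by its submitters, took no part in the comparisons. On that array 5 of the 10 members lay above every untreated array, as did 33.4% of all genes. Cdkn1a read 9.61 there against 8.72 to 9.30 in untreated neurons, Phlda3 7.66 against 7.35 to 7.56, Aen 6.51 against 5.73 to 6.23, Zmat3 8.92 against 8.72 to 8.84 and Plk3 9.67 against 8.64 to 8.93. Ccng1 (9.95 against 10.09 to 10.22), Ddb2 (7.05 against 7.12 to 7.61) and Rrm2b (8.20 against 8.36 to 8.43) lay below every untreated array, as did 34.1% of all genes. The 5 members named first were higher on both other HCA-only arrays than on every untreated array.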

How the results depend on the processing

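For HCA with 1 µM against HCA alone, the count of called members was 0 and became 1 (Cdkn1a) with the replicate block. For HCA at 0.1 µM adaptaquin, the count was 1 (Plk3). It became 3 with the replicate block (Cdkn1a, Plk3 and Zmat3), 2 without background correction and 2 in the authors' log2 table (Cdkn1a and Plk3 in both), and 0 with median scaling and without all arrays numbered 1 or 2. Leaving out 1 array gave 0 to 1, and without replicate 3 of HCA with 0.1 µM the 1 member called was Zmat3. Without all arrays numbered 3 the count stayed at 1, but the member called was Cdkn1a and not Plk3. The cause was not tested. The counts for the dose step under HCA and for 0.1 µM under HCA stayed at 0 in every alternative run. For these 4 comparisons there were 700 member values under the alternatives. Of these, 684 stayed on their side of the threshold, 9 lost a call, 7 gained one and 0 reversed with a call. Values outside the threshold could change sign and still count among the 684. Ddb2 did so for HCA with 1 µM against HCA alone, from 0.079 in the main fit to -0.071 with median scaling. The probe chosen for Ccng1 and Aen, the dim signal of Fas and Aen, and the 2 HCA-only arrays limit these values.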
